A study of Mus musculus with 10 samples.

Results

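The macrophage and myeloid markers are 39 genes that mark macrophages, monocytes and their close relatives among the 55858 genes of an RNA sequencing study of neonatal mouse hearts. They were taken by symbol from a list, and all 39 were found once in the deposited table. Within the list, Lyve1, Timd4, Folr2, Cd163 and Mrc1 are markers of long-lived resident tissue macrophages, and Ccr2, Trem2, Cd14 and Clec4n are markers of cells recruited from blood or handling lipid. The other 30 genes were grouped here by role: lineage genes, Fc receptors with their adaptors, receptors for dead cells and lipids, the phagocyte oxidase and phagosome, integrins with actin binders, and a chemokine pair.

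Macrophages take up dead cells and debris, and those of the mouse heart are first seeded before birth and then maintained mainly by local division. They depend on the receptor encoded by Csf1r and on its ligands colony stimulating factor 1 and interleukin 34. Blood monocytes enter a tissue along a gradient of Ccr2 ligands, and once inside they can take on macrophage genes. TIM4, LYVE1 and the folate receptor encoded by Folr2 are widely used to recognise resident heart macrophages, whereas CCR2 marks cells of recent monocyte origin and TREM2 marks macrophages that take up lipid.

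Whole hearts of 10 mice were sequenced, 5 in each group, and every animal carried the same alleles, labelled MCM and Chmp4bF/F. Chmp4b encodes a subunit of the ESCRT-III filament, which cuts membrane necks, and F/F marks a floxed gene on both chromosomes. The cKO mice were given tamoxifen under the skin, 0.1 mg/g on each of 2 days from postnatal day 0, and the control mice were given corn oil instead. All hearts were collected at postnatal day 10. Tamoxifen-treated hearts without the floxed alleles were not analysed here, so effects of the drug and of the loss of Chmp4b cannot be told apart. The labels do not spell out MCM or the promoter that drives it. Replicates are named below by the numbers in the titles, 1, 3, 5, 6 and 7 for cKO and 4, 6, 8, 9 and 13 for control, and values listed in a row follow that order.

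Levels are given as deposited TPM, transcripts per 1000000, which is corrected for gene length. Each TPM value is a part of a closed sum, and mitochondrially encoded genes took 35.5% to 41.5% of it in the cKO libraries and 50.0% to 59.4% in the control libraries. As deposited, the median of 13282 tested genes was 0.63 higher in cKO on the log2 scale, with 76.5% of genes called higher and 3.46% called lower. Differences are therefore given relative to the median gene: each TPM was divided by a size factor of its library, 1.20 to 1.39 in cKO and 0.702 to 0.848 in control, and compared as log2(value + 1) with limma at a Benjamini-Hochberg adjusted p under 0.05. On that scale the median gene was 0.01 higher in cKO, 20.8% of the 13282 genes were called higher and 20.8% were called lower. Chmp4b had 39.96, 36.3, 39.1, 37.4 and 38.1 TPM in cKO and 36.6, 58.6, 52.3, 47.9 and 41.9 TPM in control. Relative to the median gene the ratio of its means was 0.485, with no overlap between groups (exact permutation test, two-sided, p = 0.00794, the smallest that 5 against 5 allows). Xist, which is expressed from an inactive X chromosome, reached 1 TPM in 3 cKO and 0 control libraries, and the Y-linked Ddx3y in 2 cKO and 5 control libraries, so the sexes were not balanced. The library of cKO 1 also held 51.6 TPM of the atrial gene Myl7, against 3.50 to 8.77 TPM in the other cKO libraries.

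Most of the 39 markers were higher in the cKO hearts. With no filter on low values, all 39 could be tested, and 30 were called higher and 2, Lyve1 and Timd4, lower by limma, while 7 were not called. Across the 28821 genes of that fit, 9.44% were called higher and 9.34% lower. Among the 23 markers with at least 1 TPM in all 10 libraries, 20 were called higher, 1 lower and 2 not, where 20.4% and 23.0% of such genes were called higher and lower. The groups did not overlap, with cKO above, for 29 of the 39 markers relative to the median gene, against 8.24% of the 28821 genes. A single marker, Lyve1, had all cKO libraries below all control libraries, against 8.21% of genes.

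The values below come from the fit of the 13282 genes with at least 1 TPM in at least 5 libraries. It held 37 of the markers. Ccr2 and Fcgr1 passed through their cKO libraries alone. Trem2, Cx3cr1, Itgam, Itgb2 and Msr1 had at most 2 control libraries at 1 TPM. Of these 7, all but Msr1 were called higher, in this fit and with no filter. Across the fit 32 markers were called higher, against 20.8% of its genes. All 32 were also called higher with TPM as deposited. For list counts below, the shares of all genes are 20.8% higher and 20.8% lower in this fit, and 9.44% and 9.34% with no filter. Without overlap and with cKO above were 15.8% of the genes of this fit. The ratio of mean levels relative to the median gene ranged from 1.25 for Axl to 8.58 for Trem2, with 29 markers at a ratio of at least 2 and 8 at a ratio of at least 4. As deposited, the 39 markers together summed to 1180 to 1719 TPM in the cKO libraries and 272 to 393 TPM in the control libraries. Apoe alone held 459 to 743 TPM of this in cKO and 110 to 178 TPM in control. On that scale the median gene was itself 0.63 higher in cKO in log2. In whole hearts, more cells of a type and more RNA per cell cannot be told apart. No cKO library held the lowest or highest value throughout: cKO 6 was the lowest cKO library for 10 of the 32 markers called higher, and cKO 7 was the highest for 12.

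**Figure D1:**
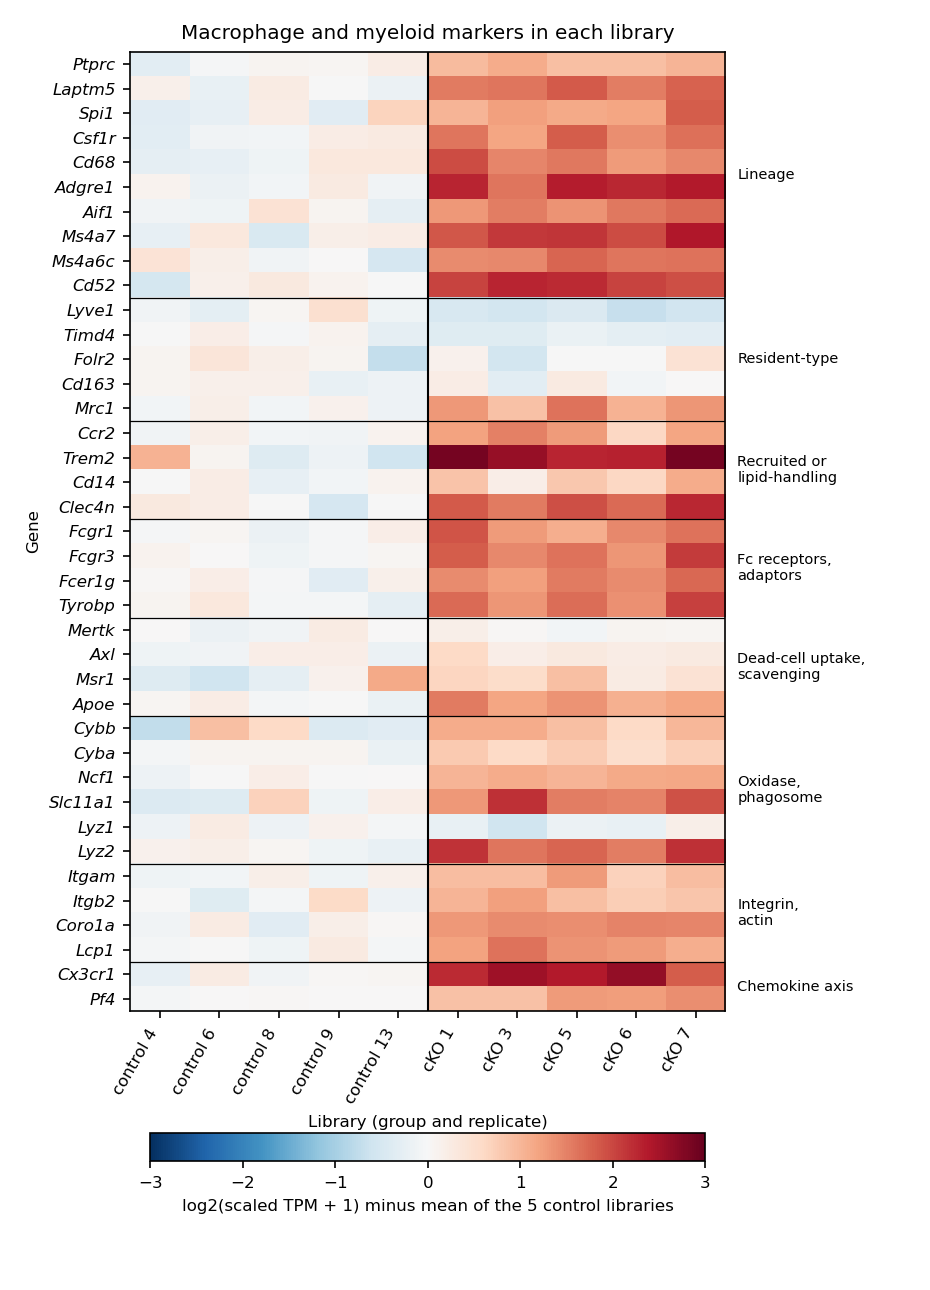
Heat map of the 39 markers (rows, grouped by role) in the 10 libraries (columns, control left and cKO right). Colour is log2(scaled TPM + 1) minus the mean of the 5 control libraries, where scaled TPM is TPM divided by the size factor. Trem2, Cx3cr1 and Adgre1 are dark red in cKO, while Lyve1 and Timd4 are pale blue and Mertk and Folr2 stay near the control mean.

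The lineage genes rose together: all 10 were called higher, against 20.8% of all tested genes. Their median log2 difference was 1.55 against 0.01 for all tested genes. Csf1r, the receptor on which macrophage survival depends, had 31.4, 21.8, 35.4, 23.4 and 29.6 TPM in cKO and 3.74, 5.26, 5.37, 6.40 and 5.92 TPM in control. Even the lowest cKO library, cKO 3, lay well above the highest control library. The log2 difference of Csf1r was 1.53 ± 0.14 (SE, n = 5 and 5, limma adjusted p = 7.15e-06). Adgre1, which encodes the F4/80 surface antigen of mouse macrophages, had 17.98, 10.3, 18.5, 15.4 and 17.6 TPM in cKO and 1.49, 1.30, 1.48, 1.97 and 1.17 TPM in control. The ratio of its means relative to the median gene was 6.44 (log2 difference 2.17 ± 0.15, limma adjusted p = 1.02e-06), and cKO 3 held the least of the cKO libraries. Cd68, a glycoprotein of late endosomes and lysosomes, had 36.05, 23.8, 26.4, 18.9 and 22.6 TPM in cKO and 3.42, 4.12, 4.49, 6.08 and 5.35 TPM in control, a ratio of 3.22 relative to the median gene. Its highest value was in cKO 1 and its lowest cKO value in cKO 6.

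Spi1 encodes PU.1, a transcription factor that the myeloid lineage requires. Its TPM was 9.57, 10.9, 10.2, 9.52 and 16.04 in cKO and 1.51, 1.96, 3.04, 1.67 and 3.67 in control, so the groups did not overlap, and cKO 7 stood above the other cKO hearts. The log2 difference was 1.28 ± 0.21 (limma adjusted p = 0.000493). Ptprc, which encodes the leukocyte surface phosphatase CD45, had 4.66, 5.19, 4.37, 3.91 and 4.56 TPM in cKO and 0.582, 1.03, 1.19, 1.09 and 1.15 TPM in control, and all cKO values lay above all control values. Its difference of 0.98 ± 0.11 was the smallest of the lineage genes (adjusted p = 2.7e-05). Cd52, a small glycosylated surface peptide of leukocytes, was the most abundant of them at 51.9, 59.2, 58.4, 44.9 and 44.2 TPM in cKO and 3.98, 7.92, 8.95, 7.13 and 5.79 TPM in control, and was 4.63 times higher relative to the median gene. The remaining lineage genes were Laptm5, a lysosomal membrane protein of blood cells, Aif1, the actin binder also called IBA1, and the membrane proteins encoded by Ms4a7 and Ms4a6c. Their ratios were 3.49, 3.50, 6.35 and 3.80, in that order, and none of these overlapped between groups.

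**Figure D2:**
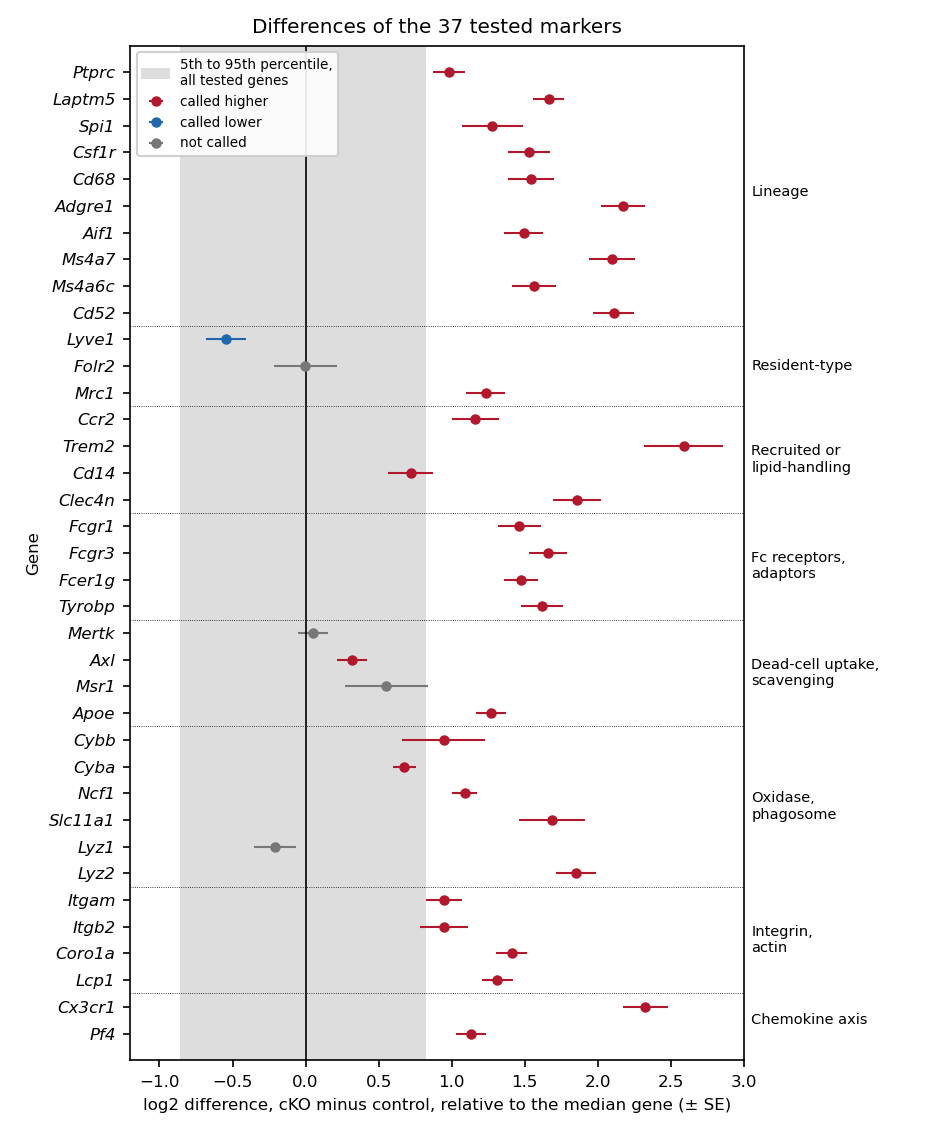
Log2 difference between cKO and control relative to the median gene (x axis, points with SE bars, n = 5 and 5) for the 37 tested markers (y axis, by role), with red for called higher, blue for called lower and grey for not called. The grey band spans the 5th to 95th percentile of all 13282 tested genes, -0.85 to 0.82. Lyve1 is the only point called lower.

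PU.1 binds DNA around a purine core, GGAA, and many of the markers are textbook targets of it. RefSeq windows of the 250 bases before a start site (GRCm38.p6) were found for 29 of the 39 markers. The letters searched were GAGGAAGT, on both strands, and they were in the window of 1 marker, Pf4, against 2.79% of 27025 symbols. After that result was seen, the overlapping parts GAGGAAG and AGGAAGT were searched as well. Each was found in windows of 8 of the 29 markers, against 12.0% and 8.80% of symbols. The shortest, GAGGAA, was in 13 of 29, against 25.9% of symbols. Windows are printed below for 5 markers whose transcripts behaved differently: Trem2 and Fcgr1, which had large ratios, Mrc1 and Folr2, a pair of resident-type genes that parted, and Pf4. Capitals mark AGGAAGT or GAGGAAG on either strand, where the reverse strand reads ACTTCCT or CTTCCTC.
Trem2, chr17:48346151-48346400, + strand: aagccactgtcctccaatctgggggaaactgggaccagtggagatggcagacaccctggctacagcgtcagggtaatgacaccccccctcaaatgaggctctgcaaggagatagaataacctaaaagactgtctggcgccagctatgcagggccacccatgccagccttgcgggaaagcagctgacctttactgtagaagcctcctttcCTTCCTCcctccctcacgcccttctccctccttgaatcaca
Fcgr1, chr3:96293970-96294219, - strand: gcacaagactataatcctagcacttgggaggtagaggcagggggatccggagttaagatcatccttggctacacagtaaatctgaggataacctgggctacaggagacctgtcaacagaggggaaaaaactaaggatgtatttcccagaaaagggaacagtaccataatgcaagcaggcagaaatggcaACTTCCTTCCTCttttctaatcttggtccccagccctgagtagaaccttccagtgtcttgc
Mrc1, chr2:14229164-14229413, + strand: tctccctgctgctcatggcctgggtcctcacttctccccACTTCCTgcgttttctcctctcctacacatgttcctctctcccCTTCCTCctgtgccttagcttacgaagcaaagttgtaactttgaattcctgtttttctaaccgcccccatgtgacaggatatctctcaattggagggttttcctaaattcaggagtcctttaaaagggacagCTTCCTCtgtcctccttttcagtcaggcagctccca
Folr2, chr7:101857191-101857440, - strand: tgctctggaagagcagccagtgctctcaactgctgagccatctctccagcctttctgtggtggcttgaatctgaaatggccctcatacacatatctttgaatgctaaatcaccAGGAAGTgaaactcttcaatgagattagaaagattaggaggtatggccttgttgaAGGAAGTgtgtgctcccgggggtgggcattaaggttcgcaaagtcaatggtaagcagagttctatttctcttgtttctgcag
Pf4, chr5:90772185-90772434, + strand: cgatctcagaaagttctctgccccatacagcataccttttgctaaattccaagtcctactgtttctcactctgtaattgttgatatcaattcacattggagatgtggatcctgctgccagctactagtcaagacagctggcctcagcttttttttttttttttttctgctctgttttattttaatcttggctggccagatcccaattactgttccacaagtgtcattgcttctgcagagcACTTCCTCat

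In Pf4 the match starts 10 bases before the start site, and in Trem2 it starts 41 bases before it. Fcgr1 has overlapping matches that start 61 and 56 bases before the start site. Mrc1 has 3 matches, 211, 168 and 36 bases before it, all on the reverse strand. Folr2, which was not called relative to the median gene, has 2, at 137 and 82 bases before the start site, both on the forward strand. A second RefSeq window of Folr2 has none. These matches are letters in a sequence, and no binding was measured.

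The resident-type markers split. Mrc1 was higher in cKO, Lyve1 and Timd4 were lower relative to the median gene, and Folr2 and Cd163 were not called. Mrc1 encodes the mannose receptor CD206 and had 18.04, 12.3, 22.3, 12.8 and 16.5 TPM in cKO and 3.10, 4.56, 3.67, 4.13 and 2.89 TPM in control. The groups were well apart, with cKO 5 the highest. Its log2 difference was 1.23 ± 0.13 (limma adjusted p = 2.23e-05), a ratio of 2.67. Mrc1 lies on chromosome 2 from 14229392 to 14332057 (GRCm38).

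Lyve1 encodes a hyaluronan receptor of resident macrophages and of lymphatic endothelium, and lies on chromosome 7 from 110850607 to 110863239. As deposited it had 2.19, 1.91, 2.19, 1.46 and 1.76 TPM in cKO and 1.68, 1.62, 2.31, 3.13 and 1.58 TPM in control, and the groups overlapped. Divided by the size factors, the values ran from 1.21 to 1.63 in cKO and from 1.91 to 3.96 in control, with no overlap. The log2 difference was -0.55 ± 0.14 (limma adjusted p = 0.00715). The lower call rests on the scaling: with TPM as deposited the difference was -0.059 (adjusted p = 0.723), and with TPM over genes that are not mitochondrially encoded it was -0.42 (adjusted p = 0.0588). Without the 3 cKO libraries that held Xist it was -0.59 (adjusted p = 0.065). Because lymphatic endothelium also expresses Lyve1, its other markers are given beside it. Of 6, 4 were tested, with a median difference of -0.19: Pdpn was called higher, and Flt4 lower relative to the median gene but not with TPM as deposited (0.36). Prox1, the lymphatic master regulator, had a difference of -0.15 (adjusted p = 0.176), and of 0.51 with TPM as deposited. Summed over the 6 genes these markers were at 24.2 to 28.9 TPM in cKO and 14.3 to 21.3 TPM in control as deposited. Divided by the size factors the sums overlapped, at 20.0 to 21.9 in cKO and 20.3 to 25.2 in control. The part of lymphatic endothelium in the level of Lyve1 was not tested.

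Timd4 encodes TIM4, a phosphatidylserine receptor of resident macrophages. It was under 1 TPM in all libraries, at 0, 0, 0.151, 0.0622 and 0.0364 TPM in cKO and 0.195, 0.398, 0.223, 0.306 and 0.0534 TPM in control. Both zeros were in cKO hearts, while control 13 was the only control library inside the cKO range. The difference in mean log2(scaled TPM + 1) was -0.31 (two-sided exact permutation test, p = 0.0159, adjusted over Timd4 and Cd163 0.0317). With TPM keeping no read depth, the number of reads behind these values is unknown. Cd163, the haemoglobin-haptoglobin scavenger receptor, had 1.0, 0.222, 1.05, 0.460 and 0.611 TPM in cKO and 0.392, 0.537, 0.528, 0.195 and 0.225 TPM in control. The groups overlapped widely and the difference was 0.02 (exact permutation test, p = 0.865). It turned to -0.038 without cKO 5, and was also below 0 without cKO 1, control 9 or control 13 (-0.027, -0.036 and -0.015).

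Folr2, the folate receptor beta of resident macrophages, had 4.51, 2.18, 3.88, 3.48 and 5.39 TPM in cKO and 2.25, 3.40, 2.88, 2.49 and 0.974 TPM in control. The groups overlapped, and control 13 held less than any other library. Relative to the median gene the difference was -0.0026 ± 0.22 (limma adjusted p = 0.994), and it lay between -0.18 and 0.14 when 1 library at a time was left out. With TPM as deposited Folr2 was called higher, at 0.54 (adjusted p = 0.0407), close to the shift of 0.63 of the median gene. Over the 3 tested resident-type genes the median difference was -0.0026.

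With no filter on low values, the 4 recruited or lipid-handling markers were all called higher, with a median log2 difference of 1.51, or 2.42 when the value added before taking logs was 0.1. Trem2, a lipid-sensing receptor that signals through the adaptor encoded by Tyrobp, had the largest difference of any marker. It lies on chromosome 17 from 48346401 to 48354147 and had 22.4, 17.4, 13.9, 12.6 and 20.2 TPM in cKO and 2.72, 1.25, 0.664, 0.875 and 0.379 TPM in control. The control libraries were spread widely, from control 13 to control 4, yet none reached the lowest cKO value. The log2 difference was 2.59 ± 0.27 (limma adjusted p = 1.66e-05) and the ratio 8.58.

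Ccr2, the chemokine receptor of recruited monocytes, had 2.62, 3.36, 2.73, 1.10 and 2.27 TPM in cKO and 0.112, 0.348, 0.140, 0.128 and 0.237 TPM in control. All control libraries were under 1 TPM and all cKO libraries above it, with cKO 6 the lowest of these. The ratio was 7.44 and the log2 difference 1.16 (limma with no filter, adjusted p = 0.000483), which the added 1 makes smaller for so low a gene. Clec4n encodes dectin-2, a receptor for fungal mannans. It had 11.4, 8.72, 11.8, 8.94 and 14.2 TPM in cKO and 1.53, 1.69, 1.33, 0.657 and 1.11 TPM in control, with no overlap and a ratio of 5.21 (adjusted p = 4.92e-06). Cd14, the lipopolysaccharide co-receptor, rose least of the 4. Its TPM was 15.8, 8.94, 14.6, 11.5 and 17.3 in cKO and 4.10, 5.85, 4.03, 4.31 and 4.47 in control, and once divided by the size factors the groups overlapped at cKO 3. The difference was 0.72 ± 0.15 (limma adjusted p = 0.00284). With Ddx3y as a covariate it was 0.41 (adjusted p = 0.0816), and 0.41 as well without the 3 cKO libraries that held Xist (adjusted p = 0.099).

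**Figure D3:**
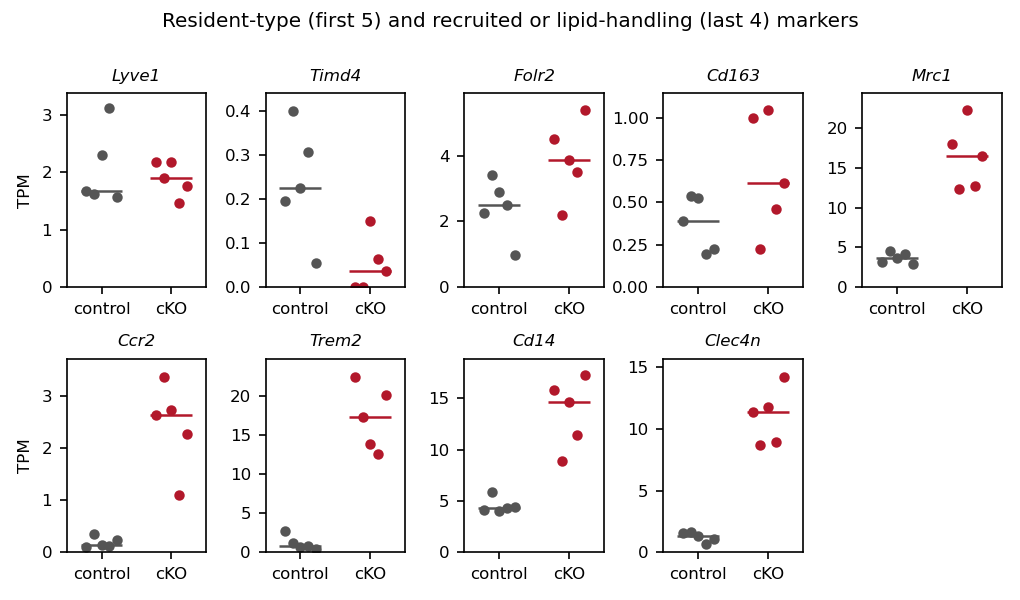
Deposited TPM of the 5 resident-type markers (upper row) and the 4 recruited or lipid-handling markers (lower row) in control (grey) and cKO (red) libraries. Each point is 1 library and each line the group median. The groups overlap for Lyve1, Timd4, Folr2 and Cd163 on this scale and are apart for Mrc1, Ccr2, Trem2, Cd14 and Clec4n.

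Set against each other within a library, the recruited or lipid-handling markers outweighed the resident-type markers in cKO. The ratio of their summed TPM ran from 1.46 to 2.31 in cKO and from 0.582 to 1.11 in control, with no overlap. Mrc1 made up most of the resident-type sum in the cKO libraries but less in most control libraries, and without it the ratio ran from 5.93 to 8.89 in cKO and from 0.974 to 2.19 in control. These ratios do not depend on the scaling of the libraries. They describe genes whose values are given above and carry no test.

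Levels were also taken per unit of Csf1r, a lineage gene that was itself higher in cKO. A gene that rose less than Csf1r is lower on this measure, whichever cells express it. Lyve1 per Csf1r ran from 0.0596 to 0.0878 in cKO and from 0.267 to 0.490 in control. Timd4 per Csf1r was at most 0.0042 in cKO and at least 0.0090 in control. Thus both were lower per unit of Csf1r in all cKO libraries than in any control library. Cd14 per Csf1r, at 0.411 to 0.584 in cKO and 0.674 to 1.11 in control, was lower too, although Cd14 itself was called higher. Mrc1 per Csf1r overlapped, at 0.547 to 0.628 in cKO and 0.488 to 0.866 in control. Folr2 per Csf1r ran from 0.100 to 0.182 in cKO and from 0.164 to 0.647 in control, and the ranges overlapped through control 13 alone. Cx3cr1 per Csf1r was the reverse case, at 0.281 to 0.7001 in cKO and 0.148 to 0.253 in control. Trem2, Ccr2 and Clec4n per Csf1r were mostly higher in cKO, but their ranges overlapped with those of control, for Trem2 through control 4 at 0.727.

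Receptors and their ligands were measured in the same hearts. Of the 8 genes that encode ligands of the marker receptors, 6 were called higher and 2 were not called with no filter. In that fit 9.44% of all genes were called higher. The median difference of the 8 was 1.20. Ccl7 and Ccl12 were below 1 TPM in every control library, so their tests below are those with no filter. Csf1, the growth factor read by CSF1R, had 37.9, 37, 46.1, 30.1 and 25.9 TPM in cKO and 5.35, 4.25, 4.94, 6.44 and 5.25 TPM in control, with no overlap. Its difference was 1.85 ± 0.14 (limma adjusted p = 2.24e-06). Il34, which encodes the other CSF1R ligand, had 2.06, 1.31, 2.87, 1.78 and 3.43 TPM in cKO and 1.83, 3.50, 1.87, 2.48 and 0.747 TPM in control, and the groups overlapped (difference -0.36 ± 0.24, adjusted p = 0.247). Without control 13 the Il34 difference was -0.56 (adjusted p = 0.0482). With TPM as deposited it was 0.12 (adjusted p = 0.658).

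The ligands of CCR2 rose along with the receptor. Ccl2, the main monocyte attractant, had 25.3, 24.3, 26.1, 15.8 and 10.02 TPM in cKO and 1.26, 2.25, 2.32, 4.56 and 3.57 TPM in control, a ratio of 4.28 (limma adjusted p = 0.000281). Its lowest cKO value was in cKO 7, still above the highest control value. Ccl7 had 5.78, 4.85, 7.62, 4.24 and 2.89 TPM in cKO and 0.508, 0.771, 0.584, 0.342 and 0.405 TPM in control (difference 1.52, limma with no filter, adjusted p = 0.000187). Ccl12, a mouse chemokine close to Ccl2, had 11.02, 8.58, 15.2, 8.35 and 10.4 TPM in cKO and 0.846, 0.735, 0.533, 0.957 and 0 TPM in control (difference 2.40, limma with no filter, adjusted p = 5.37e-05).

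Cx3cr1, the fractalkine receptor of monocytes, microglia and many tissue macrophages, had the second largest difference of the markers. It lies on chromosome 9 from 119901616 to 120069879. The levels were 12.7, 15.2, 13.8, 15 and 8.31 TPM in cKO and 0.587, 1.33, 0.847, 0.946 and 0.886 TPM in control, and cKO 7 was the lowest cKO heart while remaining well above control. The difference was 2.33 ± 0.15 (limma adjusted p = 7.52e-07), a ratio of 8.55. Its ligand gene Cx3cl1 had 5.90, 5.997, 6.70, 4.36 and 3.98 TPM in cKO and 2.14, 1.21, 1.15, 1.58 and 0.861 TPM in control, with no overlap and a difference of 0.89 ± 0.17 (adjusted p = 0.00111). Pf4, which encodes a chemokine of platelets that some macrophages also express, had 65.2, 61.7, 84.3, 73.8 and 85.3 TPM in cKO and 17.3, 21.4, 21.9, 19.95 and 17.8 TPM in control. The ratio of Pf4 was 2.27 (adjusted p = 6.01e-06).

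**Figure D4:**
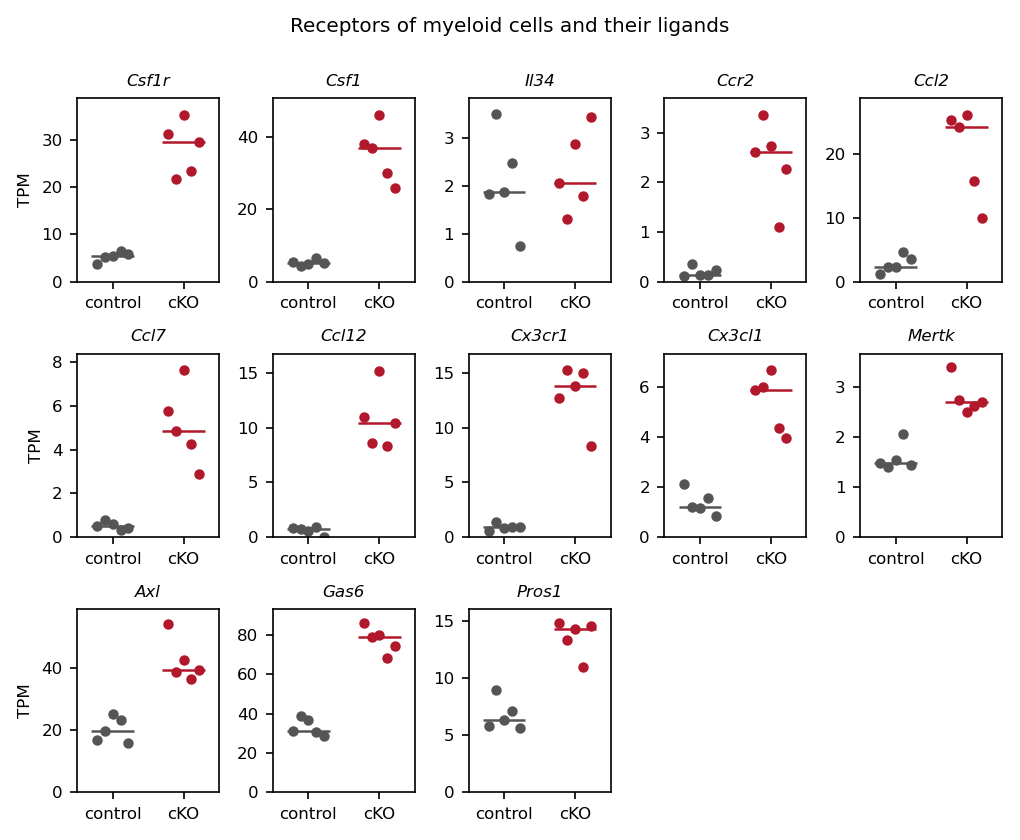
Deposited TPM of marker receptors (Csf1r, Ccr2, Cx3cr1, Mertk, Axl) and of their ligand genes in control (grey) and cKO (red) libraries. Each point is 1 library and each line the group median. Il34 overlaps between groups, whereas Csf1, Ccl2, Ccl7, Ccl12 and Cx3cl1 are apart.

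The Fc receptor genes and their signalling adaptors were all called higher, with the filter and without it, and had no overlap between groups. Their differences ran from 1.46 to 1.66, where the added 1 makes that of the low gene Fcgr1 smaller. The ratios of means relative to the median gene lay further apart, from 2.95 for Fcer1g to 7.05 for Fcgr1. Fcgr1, the high-affinity receptor for immunoglobulin G, had 5.86, 3.23, 2.70, 3.43 and 4.23 TPM in cKO and 0.278, 0.394, 0.217, 0.300 and 0.437 TPM in control, a ratio of 7.05 (limma with no filter, adjusted p = 9.77e-05). Fcgr3, a low-affinity activating receptor, had 26.8, 19.4, 22.5, 16.2 and 29.8 TPM in cKO and 3.70, 4.09, 3.66, 3.65 and 3.50 TPM in control, a ratio of 3.67 (limma adjusted p = 2.33e-06). Both receptors need the common gamma chain encoded by Fcer1g. That chain had 38.8, 32.05, 41.3, 33.2 and 43.8 TPM in cKO and 7.18, 9.61, 8.03, 5.95 and 7.64 TPM in control (difference 1.47 ± 0.12, adjusted p = 2.33e-06). Tyrobp encodes DAP12, the adaptor of TREM2, and was at 53.4, 39, 51.3, 36.6 and 62.2 TPM in cKO and 8.56, 12.1, 9.12, 8.43 and 6.39 TPM in control (difference 1.62 ± 0.15, adjusted p = 5.76e-06). In the cKO hearts Tyrobp and Fcer1g were thus more abundant than any of the receptors just named. Of 7 genes of the kinase cascade below these adaptors, 5 were called higher with no filter, against 9.44% of all genes. Their median difference was 0.62. Plcg2, the phospholipase of that cascade, had a difference of 1.00 (adjusted p = 1.71e-06), and the kinase gene Syk one of 0.42 (adjusted p = 0.0055). Among the 5, Syk and Inpp5d, a lipid phosphatase gene, were not called with Ddx3y as a covariate, at 0.35 and 0.39, or without the cKO libraries that held Xist, at 0.35 and 0.38.

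Genes for the uptake of dead cells and lipids were mixed. Of 4, 2 were called higher, with a median difference of 0.44. Apoe, a lipid carrier made in quantity by macrophages, was the most abundant of all the markers, at 743, 540.1, 625, 459 and 516 TPM in cKO and 134, 178, 147, 142 and 110.1 TPM in control. The groups were far apart, with a ratio of 2.43 on the scaled values (limma adjusted p = 2.87e-06). Mertk, a receptor tyrosine kinase that macrophages use to engulf dying cells, had 3.38, 2.74, 2.49, 2.62 and 2.69 TPM in cKO and 1.47, 1.40, 1.55, 2.05 and 1.45 TPM in control. Relative to the median gene its difference was 0.051 ± 0.10 (adjusted p = 0.716), while with TPM as deposited it was 0.55 (adjusted p = 0.000565). Msr1, the class A scavenger receptor, had 3.57, 3.10, 4.41, 2.06 and 2.65 TPM in cKO and 0.533, 0.428, 0.773, 1.19 and 2.83 TPM in control. In deposited TPM, control 13 lay inside the cKO range and the other control libraries below it. Divided by the size factors, control 13 was at 4.03, above the highest cKO value of 3.27. The difference of 0.55 ± 0.28 was not called (adjusted p = 0.143). Without control 13 it was 0.85 (adjusted p = 0.0033).

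Axl, a receptor of the same family as Mertk that fibroblasts and vessel cells also express, had 54.04, 38.6, 42.6, 36.3 and 39.2 TPM in cKO and 16.8, 19.8, 25.02, 23.3 and 15.8 TPM in control. Its difference of 0.32 ± 0.10 (limma adjusted p = 0.0259) was the smallest of the calls. The call was lost without cKO 1, control 4, control 6 or control 13, with adjusted p of 0.0554, 0.0615, 0.0592 and 0.0622. It was also lost with no filter on low values (0.0556), with Ddx3y as a covariate (0.282), without the cKO libraries that held Xist (0.256) and without cKO 1 and control 13 together (0.11), where the last 2 settings were chosen after seeing the data. Gas6, the shared ligand gene of Axl and Mertk, was higher, at 85.8, 79.04, 80.1, 67.99 and 74.2 TPM in cKO and 31.2, 38.8, 36.7, 30.9 and 28.7 TPM in control (difference 0.47 ± 0.06, adjusted p = 5.06e-05). Pros1, the gene of the Mertk ligand protein S, had a difference of 0.25 ± 0.09 (adjusted p = 0.0538). With TPM as deposited it was 0.92 (adjusted p = 2.64e-05), and with TPM over genes that are not mitochondrially encoded 0.54 (adjusted p = 0.000721). It also passed with upper-quartile scaling (adjusted p = 0.0352), with library weights (adjusted p = 0.0303), without cKO 6, at 0.29 (adjusted p = 0.0356), and without control 6, at 0.32 (adjusted p = 0.00976).

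Of the 6 genes of the phagocyte oxidase and phagosome, 5 were called higher, and the exception was Lyz1. Cybb and Cyba encode the gp91phox and p22phox subunits of the membrane flavocytochrome that makes superoxide. Cyba, which many cell types express, had 88.3, 72.4, 83.6, 63.2 and 75.4 TPM in cKO and 24.9, 32.4, 32.8, 30.6 and 21.9 TPM in control (difference 0.68 ± 0.08, limma adjusted p = 3.94e-05). Cybb had 7.997, 7.59, 6.45, 4.52 and 6.59 TPM in cKO and 0.623, 4.10, 3.14, 1.07 and 1.02 TPM in control, where control 6 and control 8 stood above the other controls. Its difference was 0.95 ± 0.28 (adjusted p = 0.0195). The call was lost without control 9 (0.85, adjusted p = 0.0501), with no filter (adjusted p = 0.057), with Ddx3y as a covariate (0.87, adjusted p = 0.137), without the cKO libraries that held Xist (0.83, adjusted p = 0.203) and without cKO 1 and control 13 together (0.82, adjusted p = 0.0904).

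Ncf1 encodes the cytosolic organiser p47phox. It varied little, at 5.52, 5.71, 5.44, 5.28 and 5.71 TPM in cKO and 0.878, 1.21, 1.54, 1.13 and 1.03 TPM in control, and was 2.88 times higher on the scaled values (limma adjusted p = 2.23e-06). Among partner genes of the oxidase, Ncf4, which encodes p40phox, had a difference of 1.56 (adjusted p = 8.5e-05) and Cybc1, a chaperone of the flavocytochrome, one of 0.55 (adjusted p = 0.000401). Nox1 and Nox4, which encode catalytic subunits of other oxidases, were too low to be tested. Slc11a1, a metal transporter of the phagosome membrane, had 10.8, 20.4, 12.6, 10.9 and 15.8 TPM in cKO and 1.23, 1.49, 4.09, 1.82 and 2.18 TPM in control, a ratio of 3.96 (adjusted p = 0.000111). Its highest cKO value was in cKO 3.

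The lysozyme genes Lyz1 and Lyz2 lie next to each other on chromosome 10, and in the mouse Lyz2 is the gene of macrophages while Lyz1 is best known from Paneth cells of the gut. Lyz2 had 246, 159, 178, 137 and 226 TPM in cKO and 30.3, 36.9, 34.02, 27.8 and 23.2 TPM in control, with every cKO library above every control library. Its difference was 1.85 ± 0.14 (limma adjusted p = 1.82e-06). Lyz1 had 2.44, 1.44, 2.47, 2.07 and 3.28 TPM in cKO and 1.33, 2.35, 1.58, 1.96 and 1.46 TPM in control, with overlap, and its difference of -0.21 ± 0.14 was not called (adjusted p = 0.266). With TPM as deposited the Lyz1 difference was 0.28 (adjusted p = 0.123). Within a library the ratio of Lyz2 to Lyz1 ran from 66.2 to 110 in cKO and from 14.1 to 22.8 in control. The upstream windows of both genes are shown because they are so alike while the levels part, with capitals for the reverse strand of AGGAAGT.
Lyz2, chr10:117282273-117282522, - strand: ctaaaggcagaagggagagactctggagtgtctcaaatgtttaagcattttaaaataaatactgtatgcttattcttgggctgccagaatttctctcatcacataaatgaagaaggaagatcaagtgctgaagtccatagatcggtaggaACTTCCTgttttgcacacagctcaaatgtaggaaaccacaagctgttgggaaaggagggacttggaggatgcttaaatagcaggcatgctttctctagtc
Lyz1, chr10:117292869-117293118, - strand: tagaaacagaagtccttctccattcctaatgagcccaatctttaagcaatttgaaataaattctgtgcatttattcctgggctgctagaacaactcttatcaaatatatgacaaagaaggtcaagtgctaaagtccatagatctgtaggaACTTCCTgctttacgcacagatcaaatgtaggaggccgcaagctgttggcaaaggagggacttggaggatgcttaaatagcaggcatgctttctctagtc

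The match begins 100 bases before the start site in both, and 205 of 260 aligned columns, 78.8%, were identical. The longest annotated transcripts were 92.0% identical over 1317 aligned columns. The sources used here do not say how reads of such copies were counted, and the split between Lyz1 and Lyz2 is therefore uncertain.

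Integrin and actin genes of leukocytes were all called higher without overlap. Itgam and Itgb2 encode the CD11b and CD18 chains of complement receptor 3. Itgam had 3.73, 3.58, 4.99, 2.61 and 3.40 TPM in cKO and 0.556, 0.724, 1.03, 0.628 and 0.819 TPM in control (difference 0.95 ± 0.12, limma adjusted p = 7.71e-05). Itgb2 had 5.40, 6.11, 4.73, 3.58 and 4.14 TPM in cKO and 0.993, 0.735, 1.11, 2.04 and 0.804 TPM in control (difference 0.95 ± 0.17, adjusted p = 0.00073). Coro1a, an actin binder of the phagocytic cup, was the most even of them. Its TPM was 20.8, 21.7, 21.6, 20.6 and 21.2 in cKO and 3.62, 5.63, 3.50, 5.04 and 3.94 in control (difference 1.41 ± 0.11, adjusted p = 1.73e-06). Lcp1, the actin-bundling L-plastin, was at 31.4, 40.1, 33.8, 28.5 and 26.2 TPM in cKO and 6.28, 7.67, 7.01, 8.97 and 6.18 TPM in control, a ratio of 2.65. Exons of 8 markers overlap a gene on the opposite strand in GENCODE M21, among them Csf1r with Hmgxb3, Cd52 with Crybg2, Ncf1 with Gtf2ird2 and Coro1a with Bola2, and Itgam overlaps Gm49368 on its own strand. The sources used here give no strand setting for the counting, and reads of these pairs cannot be told apart.

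Other myeloid genes, outside the 39, moved the same way. With no filter all 60 pan-myeloid genes were tested and 55 were called higher, against 9.44% of all genes in that fit. Their median difference was 1.00. Ctss, a cysteine protease of antigen-presenting cells, had 58.2, 46.1, 55.8, 41.4 and 59.3 TPM in cKO and 4.997, 6.73, 5.38, 5.26 and 5.47 TPM in control (difference 2.32, limma adjusted p = 3.34e-08), and Tlr2, a receptor for bacterial lipopeptides, had a difference of 1.99 (with no filter, adjusted p = 9.01e-06). The complement genes C1qa, C1qb and C1qc, which macrophages supply in most tissues, had differences of 1.95, 2.04 and 1.85, each called higher. Of 11 myeloid transcription factor genes 6 were called higher with no filter, against the same 9.44%. Maf, a regulator of macrophage identity, was among these at 1.46, with Irf8, a regulator of monocyte development, at 1.43. Klf4, which monocytes share with vessel cells, was the only one called lower, at -1.23 (adjusted p = 6.09e-06).

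Of 17 genes linked to lipid-associated macrophages, 16 were tested, and 9 were called higher and 3 lower. Among all tested genes 20.8% were called higher and 20.8% lower. The median difference of the list was 0.48. Lgals3, which encodes galectin-3, had 129, 74.5, 77, 32.8 and 47.3 TPM in cKO and 2.64, 2.77, 2.23, 2.98 and 3.15 TPM in control, a difference of 3.49 (limma adjusted p = 1.91e-06). Ctsd, a lysosomal protease present in nearly all cells, had a difference of 2.05 (adjusted p = 7.23e-08). The 3 called lower were Cd36, Fabp4 and Fabp5, genes of fatty acid uptake and binding that heart muscle and capillaries express strongly. Cd36 was at 487, 465, 450.2, 449 and 442 TPM in cKO and 355, 472, 462, 415 and 312 TPM in control, so the deposited levels overlapped. Its difference was -0.54 relative to the median gene and 0.20 (adjusted p = 0.115) with TPM as deposited, where Fabp4 and Fabp5 had 0.038 and 0.029.

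Markers of other blood cells were low or mixed, apart from the lymphocyte sum, which was low but higher in cKO. Of 12 monocyte genes 8 were tested, and 2 were called higher and 2 lower, with a median difference of 0.26. Among all tested genes 20.8% were called higher and 20.8% lower. Ly6c2, a marker of classical monocytes that was chosen here after its values were seen, had 1.32, 1.37, 1.83, 1.24 and 0.921 TPM in cKO and 1.59, 0.705, 1.17, 0.603 and 1.11 TPM in control, with overlap and no call (limma adjusted p = 0.395). The 2 called higher, Vcan and Fn1, encode matrix proteins that fibroblasts also make, and the 2 called lower were Ly6c1, which endothelium expresses and whose difference was 0.11 with TPM as deposited, and Nr4a1, an immediate early gene. Of 13 neutrophil genes 2 were tested, S100a8 and S100a9, with limma adjusted p of 0.38 and 0.711. Elane was listed at 0 in all 10 libraries and Ly6g in 9 of them. Summed over the neutrophil list the range was 14.9 to 52.4 TPM in cKO and 7.76 to 22.9 TPM in control. Lymphocyte genes summed to 10.2 to 11.8 TPM in cKO and 3.10 to 4.41 TPM in control, and Trac, which encodes the constant part of the T cell receptor alpha chain, was called higher. Dendritic cell genes summed to 5.47 to 8.59 TPM in cKO and 3.17 to 4.57 TPM in control, and mast cell genes to 7.32 to 14.4 and 6.54 to 11.6 TPM. Divided by the size factors, the lymphocyte sums stayed apart, at 7.57 to 9.02 in cKO and 3.92 to 5.22 in control. The other sums overlapped on that scale. They were 12.4 to 39.8 and 9.81 to 32.7 for neutrophil genes, and 4.54 to 6.78 and 4.52 to 5.38 for dendritic genes. For mast cell genes they were 5.28 to 11.2 and 7.71 to 13.7. With no filter, 2 of 12 neutrophil, 2 of 16 lymphocyte and 1 of 8 dendritic genes were called higher and 0 lower. Across all genes of that fit 9.44% were called higher and 9.34% lower. The part of these cells in the marker levels was not tested.

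Markers of the heart's own cells differed as well, where 20.8% of all tested genes were called higher and 20.8% lower. All 10 blood endothelial genes were called lower relative to the median gene, with a median of -0.60, and of 0.12 with TPM as deposited. Of 10 fibroblast genes 9 were called higher, with a median of 0.57. Of 11 cardiomyocyte genes, 8 were called lower and 3 higher by limma, with a median of -0.86, or -0.11 with TPM as deposited. Of the 5 tested erythroid genes, which mark blood cells rather than heart cells, 0 were called higher and 0 lower. Their median was -0.56, or 0.18 with TPM as deposited. The part of these lists in the marker differences was not tested. With Ddx3y as a covariate 29 markers were called higher and 1 lower, and without the 3 cKO libraries that held Xist 29 were called higher and Lyve1 no longer passed, where the fit had 2 cKO libraries against 5. Leaving out cKO 1, the library with more Myl7, left 31 markers called higher.

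**Figure D5:**
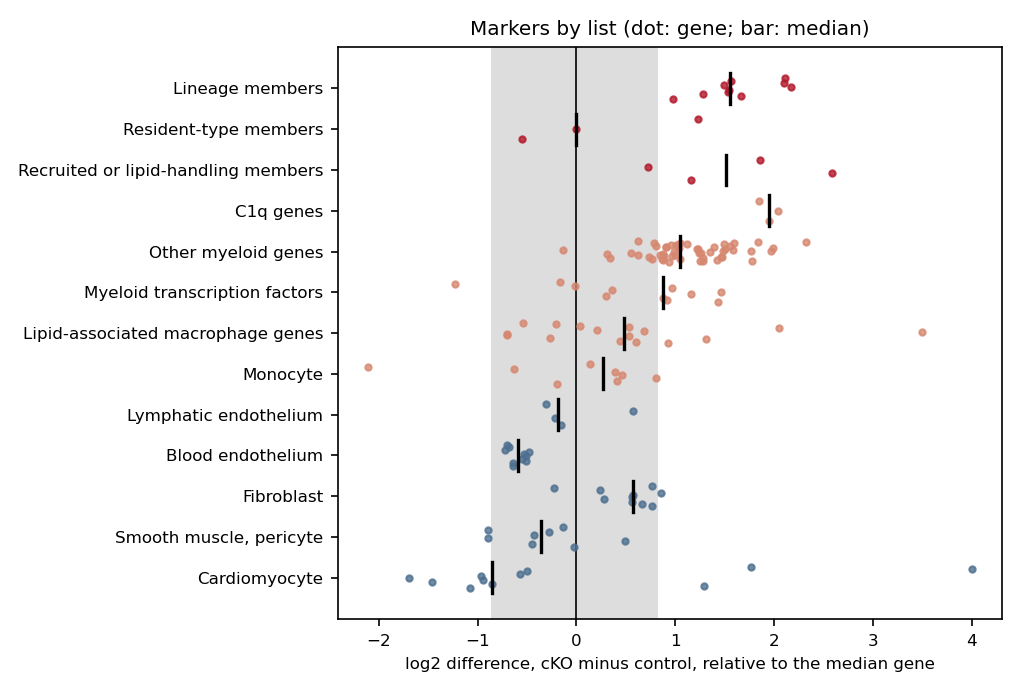
Log2 difference between cKO and control relative to the median gene (x axis) for each tested gene (dot) of the gene lists (y axis), with a bar at each list's median and a grey band for the 5th to 95th percentile of all tested genes. Red dots are markers, orange dots other myeloid lists and blue dots lists of other heart cells. Lineage members and C1q genes lie to the right of the band, with medians of 1.55 and 1.95, while the blood endothelium median is at -0.60.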

How the data were processed

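RNA from 10 mouse hearts, 5 per group, was sequenced from total RNA, per the labels' protocols, and titles gave each sample's group and replicate number. What the authors deposited is 1 table with TPM values of 55858 genes. Tools named in the submitters' processing notes, without role or order, are STAR 2.7.1, HTSeq 0.11.2, DESeq2 1.22.2, bcl2fastq, FastQC 0.11.7, Picard 1.96 and Trimmomatic 0.32. The build they name is mm10. The annotation, gene lengths, strand setting and treatment of reads that map to several genes are not given in the sources used here. TPM keeps no read depth, so the depth is unknown and no counting interval is given. The labels name 5 mice per group and say no more of how they were bred, so p-values measure the spread between these animals. No 2 libraries held identical values.

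TPM was divided by median-of-ratios size factors from 16393 genes and tested as log2(value + 1), which understates fold changes of low genes. Genes at 1 TPM in at least 5 of 10 libraries (13282) entered limma 3.58.1 in R 4.3.3, two-sided with a trend in the variance and Benjamini-Hochberg adjustment over all of them. Timd4, Cd163 and Chmp4b were compared by exact permutation over 252 splits. The markers, roles and gene lists were chosen with earlier results of these data known, so counts over a list are descriptions. The text names all markers, Chmp4b, the ligand, C1q and oxidase partner genes, and up to 6 genes of every other list by smallest adjusted p, apart from a few that are not reported here. Sequences are from RefSeq and coordinates from GENCODE M21 on GRCm38. Alternatives changed the scaling, the pseudocount, the filter, the variance model and the libraries used. Python 3.11.15, pandas 2.3.3, scipy 1.17.1 and Biopython 1.88 were used.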

Additional observations from a re-analysis of the deposited data

Results flagged for a closer look

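Across 78 groups of 5 libraries, the 39 markers were checked for a library far from the other 4. The check used log2(value + 1) relative to the median gene. A library was flagged where its gap to the nearest library exceeded 0.71 of the range on that log scale. The values printed below are scaled TPM before taking logs. Chance alone gives about 1 such case in 20 groups, and 5 were found. Spi1 in cKO 7 was at 12.7 scaled TPM, where the next library held 8.24. Axl in cKO 1 was at 38.9, with the next at 31.6. Adgre1 in cKO 3 was low at 7.81, with the next at 12.8, and still above control. Folr2 in control 13 was low at 1.39, with the next at 3.15. Lcp1 in control 9 was at 11.3, with the next at 9.07.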

How the results depend on the processing

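Over 23 alternatives, 63 of 81 single genes kept direction and side of the threshold wherever they were tested. So did 29 of the 32 markers called higher, though not every alternative tested all of these. Axl, Cybb and Cd14 lost the call under some. With TPM as deposited 10160 genes were called higher and 460 lower, 0 markers were called lower by limma, and the resident-type and recruited medians were 0.54 and 1.94. On that scale differences turned positive for Folr2 (0.54), Lyz1 (0.28), Il34 (0.12), Cd36 (0.20), Prox1 (0.51), Ly6c1 (0.11) and Ly6c2 (0.21). With TPM over genes that are not mitochondrially encoded, 6064 genes were higher and 1373 lower, 0 markers were lower, the recruited median was 2.05, and Folr2 (0.25) and Prox1 (0.12) were positive. Folr2 was at 0.0091 with upper-quartile scaling and 0.0040 with a pseudocount of 0.1, which gave a recruited median of 2.42. No filter gave 2 markers lower. Requiring 1 TPM in all libraries tested 23 markers, of which 20 were higher. The resident-type median of 0.34 then rested on Lyve1 and Mrc1 only, and the recruited value of 0.72 was that of Cd14 alone. Ddx3y as a covariate gave 1641 genes higher and 1774 lower. Without the cKO libraries that held Xist, an alternative chosen after seeing the data, it was 1662 and 1805 with 0 markers lower. For these the cause was not tested. Leaving out 1 library at a time gave 2525 to 2725 genes higher and 2501 to 2767 lower, 31 to 32 markers higher and 1 lower, resident-type medians (and Folr2) of -0.18 to 0.14, recruited medians of 1.45 to 1.59, Timd4 at -0.39 to -0.27 and Cd163 at -0.038 to 0.11. No paired analysis was possible because the titles of the groups share only the number 6. Read depth is unknown, which limits Timd4, Cd163 and Ccr2 most.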
